A study of Mus musculus with 8 samples.

Results

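The array of cells labelled differentiated osteocytes (title Os_d21) was set against the 2 arrays labelled undifferentiated mesenchymal stem cells, or MSCs (titles MSC_d0 and MSC_p4). These 3 of the 8 arrays in the series were taken by their cell type label, and genes were described where the osteocyte array differed in the same direction from both MSC arrays. All 8 Illumina arrays measured total RNA of MSCs from adult bone marrow of C57BL/6J mice, or of cells made from such MSCs, and the series dealt with lineage differentiation and reprogramming. The other arrays were differentiated adipocytes (Ad_d7), differentiated chondrocytes (Ch_d28) and reprogrammed osteocytes, adipocytes and chondrocytes (ROS_p1, RAD_p1 and RCH_p1), and they enter here as levels only. The labels explain neither the d nor the p of the titles, and they name no culture medium, inducing agent, factor or number of animals. The osteocyte label has 1 array and therefore no replicate check, nothing says that the MSC arrays came from separate cultures or animals, and no difference is given a p-value.

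Marrow stroma holds MSCs, progenitors that can be induced to form bone, cartilage or fat. On the way to bone they become osteoblasts, which deposit type I collagen and mineralise it with the help of alkaline phosphatase (Alpl), bone sialoprotein (Ibsp) and osteocalcin (Bglap) under the transcription factor Sp7. Osteocytes are the osteoblasts that become embedded in that matrix and secrete sclerostin (Sost), Dmp1, Mepe and the phosphate hormone Fgf23. The glucocorticoid receptor, a nuclear receptor for corticosteroids, binds DNA as a dimer at inverted repeats and induces a well known set of genes in many cell types, bone forming cells included.

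Levels are the authors' deposited log2 values. On every array they had a median of 3.90 and a maximum of 15.05, and 12610 probes reached a level of 6. Differences were taken after an offset of 16 had been added to the linear values, log2(2^x + 16), which understates the differences of dim genes. Of 9069 genes at a level of 6 on at least 1 of 8 arrays, 394 (4.34%) were at least 2-fold higher on the osteocyte array than on both MSC arrays, and 219 (2.41%) were at least 2-fold lower. The difference from the nearer MSC array had a median of 1.63 over the genes higher and -1.30 over the genes lower. It reached 4 on the log2 scale at 22 genes higher and at 1 gene lower. At 156 of the 394 genes both MSC arrays were under 6, and at 100 of the 219 genes the osteocyte array was, so that only a bound on the fold can be given for them. The limit fell between Jmjd8 (1.006) and Mrgpra2b (0.9965) among genes higher, and between Csgalnact1 (-1.002) and Ccm2 (-0.9978) among genes lower.

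The MSC arrays themselves differed by at least 2-fold at 1248 genes, so the choice of MSC array matters to every count. Against MSC_d0 alone 488 genes were higher and 385 lower, and against MSC_p4 alone 1070 were higher and 896 lower. Across the 9069 genes the osteocyte array correlated at r = 0.937 with MSC_d0 and 0.873 with MSC_p4, a description over genes, which are not independent. MSC_p4 had 7652 probes at 0, against 4335 on MSC_d0 and 4317 on the osteocyte array, and the part of this gap in the differences from MSC_p4 was not tested. These are bulk RNA levels, in which fewer cells of a type and less RNA per cell cannot be told apart.

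**Figure D1:**
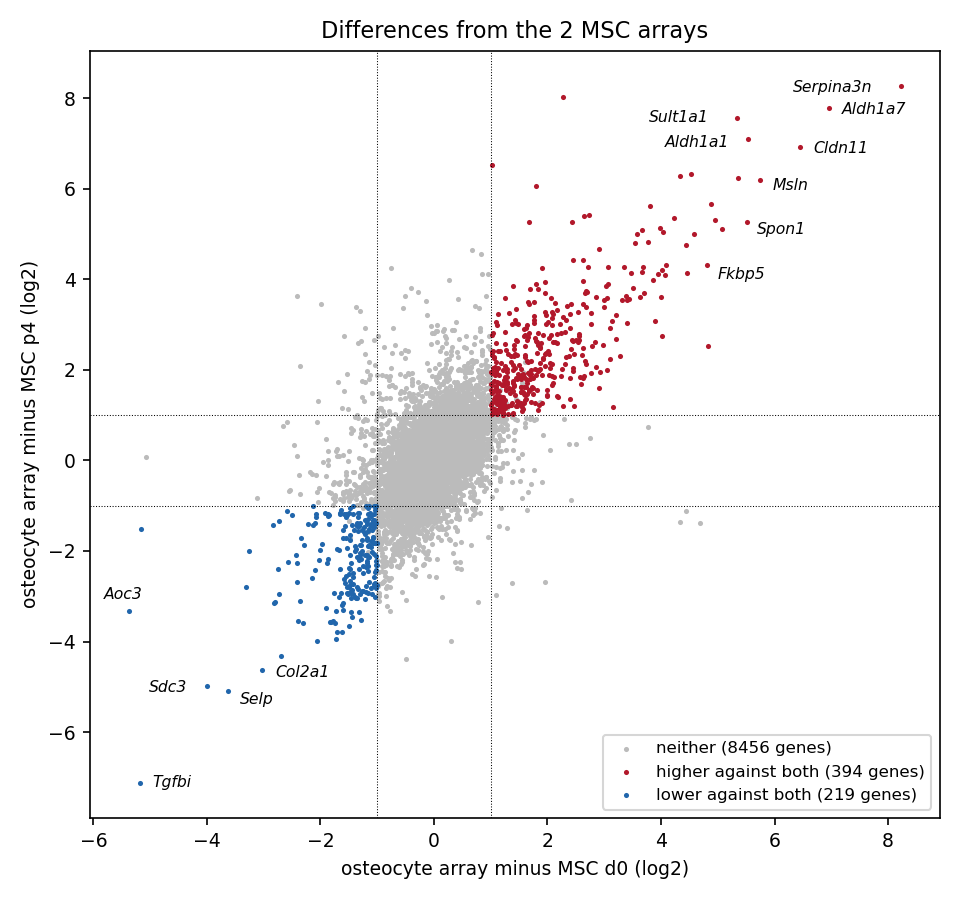
Each point is 1 of 9069 genes, placed by its log2 difference between the osteocyte array and MSC_d0 (horizontal) and MSC_p4 (vertical). Dotted lines mark a log2 difference of 1 in either direction. The 394 genes at the upper right reach farther from the origin than the 219 at the lower left, with Serpina3n at the far corner and Tgfbi lowest.

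The label was checked against bone markers, and most of its defining markers were not higher. Sp7, the osteoblast transcription factor, stood at 8.58 on the osteocyte array and at 9.16 on both MSC arrays. Alpl was at 5.33, against 5.33 on MSC_d0 and 6.15 on MSC_p4. Ibsp was at 5.30 against 4.43 and 5.07, under 6 throughout. Col1a1, the main chain of bone collagen, was at 8.30 against 10.41 and 9.25, the lowest of these 3 arrays. Col1a2, the other chain of type I collagen, was at 10.45 against 12.12 and 11.64 and was lower against both. The osteocyte products Dmp1, Sost, Mepe and Fgf23 were under 6 on all 8 arrays, with Sost at 1.31 and Fgf23 at 0 on the osteocyte array. Phex, an osteocyte endopeptidase of phosphate control, was at 1.18 against 5.09 and 6.17, so that of these 3 arrays it reached 6 on MSC_p4 alone. It was lower by the size rule, and not once values under 6 were raised to 6.

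Some bone genes did lie above both MSC arrays. Pdpn (podoplanin), an early osteocyte marker that stromal cells also carry, was at 13.19 against 12.24 and 12.10, a difference of 0.95 from the nearer array that missed the limit. Bglap2, a mouse osteocalcin gene, was at 8.38 against 5.35 and 3.99, at least 4.37-fold higher. Bglap was at 6.46 against 3.56 and 3.60, at least 1.30-fold higher, and its other probe at the level gave a mean difference of -0.08. The osteocalcin genes are near-identical copies whose probes can share signal. Of 19 osteoblast and bone matrix genes compared, 3 were higher (Bglap, Bglap2 and Dlx6) and 2 lower (Col1a2 and Ank, which carries pyrophosphate out of cells). These are 15.8% and 10.5%, against 4.34% and 2.41% of all genes. The median difference was -0.30 from the MSC mean against 0.02 over all genes compared. Of 12 genes of an osteocyte list, 0 were higher and 1, Phex, was lower. The highest levels in the series of Sp7 (12.64), Alpl (10.57), Ibsp (11.70), Bglap (10.98) and Col1a1 (12.37) were on the array labelled chondrocytes, whereas Pdpn was highest on the osteocyte array. That chondrocyte array had the cartilage genes Sox9 at 10.73, Col2a1 at 9.77 and Col10a1 at 7.51, with Acan at 5.66 and Comp at 3.93. Sox9 was at 10.57 on MSC_d0, and Col2a1 at 9.91, 10.70 and 10.48 on the reprogrammed osteocyte, adipocyte and chondrocyte arrays. Col10a1 reached 6 on no other array, and Acan and Comp reached it on none. By most of the bone markers above the data go against the osteocyte label. Whether cultures or labels were exchanged was not tested, and the osteocyte and chondrocyte arrays are called after their labels only.

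Markers of other cells were checked in the same way. Of 24 macrophage and monocyte genes 2 reached a level of 6 on the osteocyte array, against 3 on MSC_d0 and 1 on MSC_p4, and 0 of 17 endothelial and blood genes did so on any of the 3. Adgre1, Csf1r, Ptprc and Tyrobp were under 6 on all 8 arrays. Of 13 osteoclast genes 3 reached 6 on each of the 3 arrays, among them the protease gene Ctsk at 9.80 against 9.46 and 8.69. Of 30 adipocyte genes 12 reached 6 on the osteocyte array, 11 on MSC_d0 and 15 on MSC_p4, and their summed signal was 14.81 against 15.06 and 14.90. The summed linear signal of the macrophage list, as log2, was 9.50 on the osteocyte array and 9.87 and 9.05 on the MSC arrays, and that of the endothelial and blood list was 8.04 against 8.01 and 7.85. Of the mesothelial markers Upk3b and Krt19 were under 6 on every array, while Msln was at 10.56 on the osteocyte array.

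The genes farthest above the MSC arrays coded for a secreted protease inhibitor, enzymes of aldehyde and sulfate metabolism, tight junction proteins and surface antigens. Serpina3n, a secreted inhibitor of serine proteases and an acute phase protein, was at 12.36 on the osteocyte array, 0.63 on MSC_d0 and 0 on MSC_p4. It was at least 65.9-fold higher, and at 10.70 and 10.38 on the chondrocyte and adipocyte arrays it was also far above the MSC arrays. Its 250 bases before the RefSeq start site are shown because they hold a 13-base inverted repeat, in capitals, of the kind that the glucocorticoid receptor binds (GRCm38.p6, plus strand, chr12:104406458-104406707, from RefSeq).
Serpina3n: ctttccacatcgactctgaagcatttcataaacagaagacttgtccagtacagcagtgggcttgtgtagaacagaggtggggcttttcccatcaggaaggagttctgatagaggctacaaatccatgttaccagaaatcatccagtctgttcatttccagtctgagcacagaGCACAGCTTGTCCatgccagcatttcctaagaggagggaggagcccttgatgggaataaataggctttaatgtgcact

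Aldh1a1, which makes retinoic acid from retinaldehyde, was at 11.49 against 5.55 and 2.36, at least 36.1-fold higher. Its mouse paralog Aldh1a7 was at 12.60 against 5.09 and 3.60, at least 78.0-fold higher, and probes of such close paralogs can share signal. Cldn11, a tight junction claudin of myelin and Sertoli cells, was at 11.64 against 4.37 and 3.38, at least 40.2-fold higher. Msln (mesothelin), a surface glycoprotein of mesothelium, was at 10.56 against 3.63 and 2.28, at least 19.1-fold higher. Each of these stood highest on the osteocyte array among all 8, with the chondrocyte array next for Aldh1a1 (8.48), Cldn11 (6.82) and Msln (7.30).

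The rest of the 20 genes farthest above the nearer MSC array were of mixed function. Fam107a, an actin-bundling gene induced by stress and glucocorticoids, was at 10.30 against 3.91 and 0, at least 15.9-fold higher. Slc10a6, a transporter of sulfated steroids, was at 10.48 against 4.76 and 4.71, at least 18.0-fold higher, and no other array exceeded 5.97. Spon1 (spondin 1), a matrix protein of axon guidance, was at 9.70 against 1.38 and 2.58, at least 10.6-fold higher. Ace, the angiotensin converting enzyme, was at 8.53 against 0.62 and 2.61, and on no other array did it reach 6. Ramp2, a partner of the adrenomedullin receptor, was at 11.99 against 7.66 and 6.38, which makes it 18.7-fold above the nearer array. Dpep1, a membrane dipeptidase, was at 11.13 against 6.47 and 6.09, or 21.7-fold above. Scg2 (secretogranin II), Itgbl1, Cldn1, Cldn10, Igfbp5, Fmo1, Sult1a1, Fkbp5 and Lcn2 completed the group. On the osteocyte array these 20 genes lay between 8.11 (Scg2) and 13.58 (Fmo1).

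**Figure D2:**
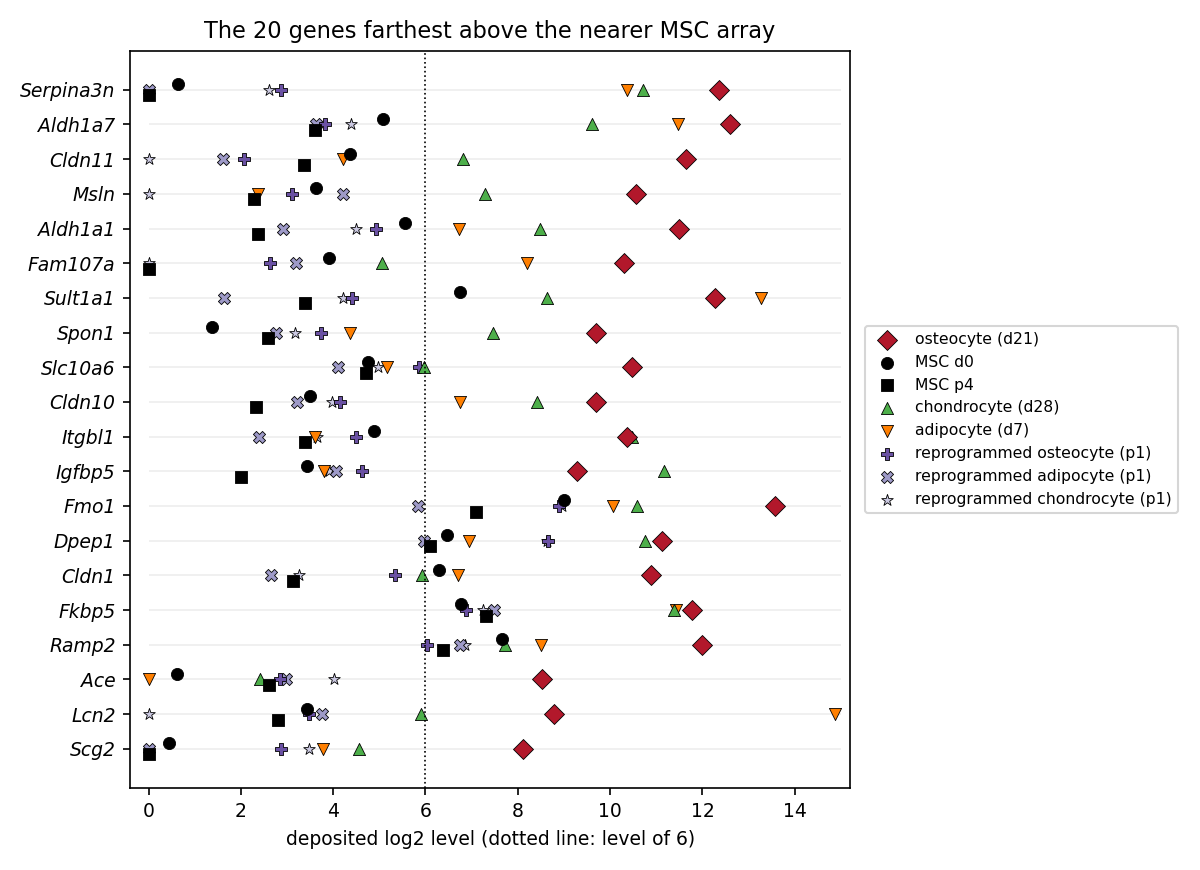
Deposited log2 levels on all 8 arrays of the 20 genes farthest above the nearer MSC array. Red diamonds are the osteocyte array and black symbols the MSC arrays, drawn a little apart vertically so that both can be seen. The red diamond is rightmost at all but Sult1a1, Itgbl1, Igfbp5 and Lcn2, where the adipocyte or chondrocyte array is higher.

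Glucocorticoid targets were the list with the largest share of genes higher. Of 27 compared, 17 were higher and 1 lower, which is 63.0% and 3.70% against 4.34% and 2.41% of all genes. Their median difference was 1.75 against MSC_d0 and 1.96 against MSC_p4, and the median against the MSC mean was 1.79, or 1.69 with dim genes at their bound. Fkbp5, a co-chaperone that restrains the receptor, was at 11.77 against 6.76 and 7.31, 20.04-fold above the nearer array. Tsc22d3 (GILZ), a leucine zipper protein that mediates anti-inflammatory effects, was at 13.72 against 9.67 and 9.49, or 16.2-fold above. Zbtb16 (PLZF), a zinc finger repressor, was at 7.81 against 4.25 and 3.17. The osteocyte array lay above both MSC arrays at each of these, from MSC levels that were under 6 for Zbtb16 and above 9 for Tsc22d3.

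Other members covered a wide range of levels. The kinase Sgk1 was at 15.02 against 13.20 and 13.45, and the metallothionein Mt1 at 14.90 against 13.63 and 13.34. Zfp36 (tristetraprolin), which destabilises inflammatory mRNAs, was at 11.88 against 9.30 and 9.05, 5.86-fold above the nearer array. Per1, a clock gene with glucocorticoid response elements, was at 8.74 against 6.87 and 6.77, or 3.35-fold above. Dusp1, a MAP kinase phosphatase, was at 13.18 against 11.93 and 11.86. Hsd11b1, which regenerates active glucocorticoid inside cells, was at 10.65 against 5.37 and 8.05. Angptl4, an inhibitor of lipoprotein lipase, was the member lower, at 8.71 against 9.75 and 11.05. On the other differentiated arrays Fkbp5 stood at 11.43 (adipocyte) and 11.39 (chondrocyte) and Tsc22d3 at 12.30 and 12.69, while on the reprogrammed osteocyte array they were at 6.88 and 9.61.

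The windows around start sites were searched for a 13-base inverted repeat, which is its own reverse complement. It consists of the arm GNACA, any 3 bases and the arm TGTNC. The windows ran from 250 bases before to 50 bases after each RefSeq start site. It was found at 12 of 303 genes higher that had a window (3.96%), at 0 of 162 genes lower, at 29 of 7387 genes compared (0.393%) and at 145 of 27025 RefSeq genes (0.537%). The short arm AGAACA, or TGTTCT on the other strand, was found at 17.8% of genes higher, 14.2% of genes lower and 14.4% of genes compared. A match is a description of letters and not a site shown to be bound. The genes with the long repeat were Serpina3n, Fam107a, Slc10a6, Sgk1, Mt1, Txnip, Amy1, Car14, Folh1, Map3k6, Suox and Map7d2. The stretches that hold it before a start site are printed so that they can be set beside each other, each 5′ to 3′ on the gene's strand with the repeat in capitals (GRCm38.p6, from RefSeq).
Fam107a: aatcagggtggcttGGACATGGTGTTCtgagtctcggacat
Slc10a6: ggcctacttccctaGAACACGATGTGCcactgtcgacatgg
Sgk1: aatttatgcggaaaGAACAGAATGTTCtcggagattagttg
Mt1: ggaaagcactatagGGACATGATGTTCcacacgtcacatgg
Txnip: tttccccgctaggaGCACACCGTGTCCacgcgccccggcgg
Folh1: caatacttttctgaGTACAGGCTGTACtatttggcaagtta
Car14: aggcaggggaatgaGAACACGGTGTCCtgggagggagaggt
Map3k6: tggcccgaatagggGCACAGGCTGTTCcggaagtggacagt
Suox: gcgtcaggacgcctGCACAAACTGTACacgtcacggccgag
Amy1: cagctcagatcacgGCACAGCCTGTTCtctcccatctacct

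The repeat of Sgk1 begins 188 bases before a start site, in the stretch at chr10:21993688-21993728 (plus strand), and that of Mt1 begins 94 bases before, in chr8:94178981-94179021 (plus strand). Those of Fam107a (chr14:8309871-8309911) and Slc10a6 (chr5:103629540-103629580), both on the minus strand, begin 118 and 163 bases before. Folh1, the folate hydrolase also known as prostate membrane antigen, was at 7.68 on the osteocyte array and at 0 on both MSC arrays, at least 2.77-fold higher. Txnip, a thioredoxin inhibitor that restrains glucose uptake, was at 12.18 against 10.37 and 8.21. Car14, a membrane carbonic anhydrase, was at 7.29 against 3.72 and 3.26.

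**Figure D3:**
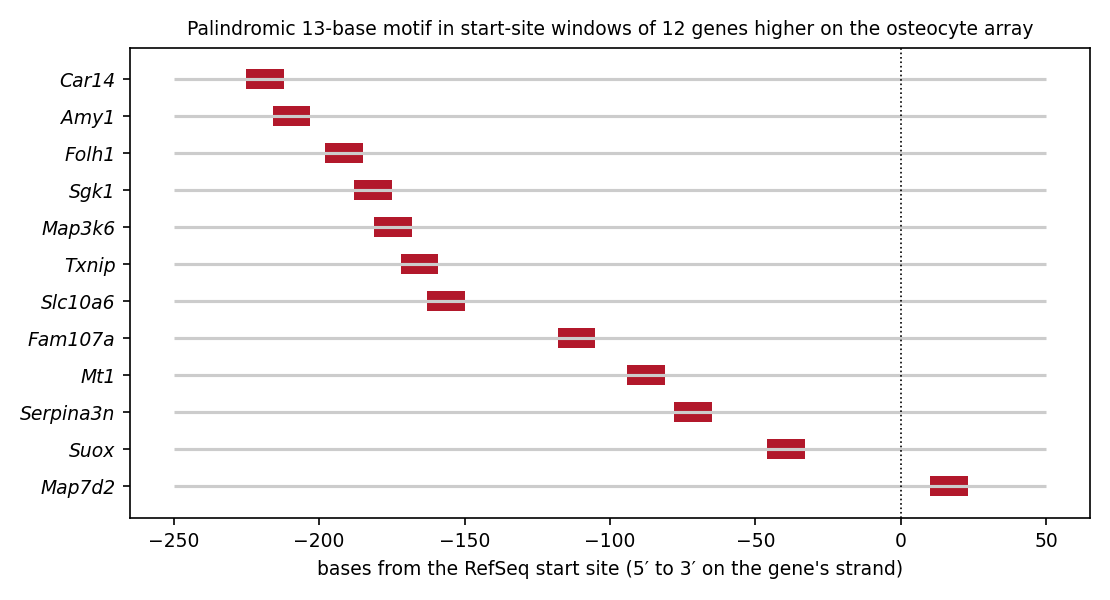
Positions of the 13-base inverted repeat (red, drawn to scale) in the windows of the 12 genes higher on the osteocyte array that hold it, as bases from the RefSeq start site (dotted line). In 11 genes it lies before the start site, from 225 bases upstream in Car14 to 46 in Suox, and in Map7d2 it lies 10 bases after it.

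Acute phase and complement genes were the list with the next largest share higher, 8 of 19 (42.1%, against 4.34% of all genes), and 0 were lower. Their medians were 0.68 against MSC_d0 and 1.72 against MSC_p4. With dim genes at their bound the median was 0.20. Lcn2, a siderophore-binding lipocalin, was at 8.78 against 3.42 and 2.80, at least 5.68-fold higher, and at 14.87 on the adipocyte array. Lbp, which presents lipopolysaccharide, was at 9.31 against 4.65 and 1.25, at least 8.10-fold higher. Serping1, the inhibitor of C1 proteases, was at 6.24 against 3.35 and 3.12. Complement C2 was at 11.60 against 9.78 and 4.95, so most of its distance from MSC_p4 was also seen between the MSC arrays. Cp (ceruloplasmin) and Ptx3 were nearer to the limit, at 1.10 and 1.03 from the nearer array.

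Junction and surface genes of epithelia and mesothelium were few on these arrays. Of 26 listed genes with a probe, only 10 reached the level on any array and were compared. Of these 10, 4 were higher (Msln, Cldn1, Cldn11 and Cdh1) and 1 lower (Pkp2, a desmosomal plaque protein, at 6.49 against 7.94 and 9.64). Among all genes 4.34% were higher and 2.41% lower. Msln, Cldn1 and Cldn11 also belong to the 20 genes farthest above the nearer MSC array, and the list was chosen with earlier results known. An epithelial or mesothelial state was not tested. Cldn1, a barrier-forming claudin, was at 10.90 against 6.30 and 3.12, 20.3-fold above the nearer array. Cldn10, a claudin that forms ion-selective pores, was at 9.69 against 3.50 and 2.33, at least 10.5-fold higher. Cdh1 (E-cadherin) was at 6.30 against 3.98 and 4.12, at least 1.18-fold higher.

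Of the listed enzymes that handle aldehydes, retinoids and foreign compounds, those past the limit against both MSC arrays were higher. Of 47 antioxidant, glutathione and detoxification genes 10 were higher (21.3%, against 4.34% of all genes) and 0 lower, with a median difference of 0.18. By any size 21 of them lay above both MSC arrays and 10 below both. Fmo1, a flavin monooxygenase, was at 13.58 against 9.01 and 7.09, 23.1-fold above the nearer array. Sult1a1, a phenol sulfotransferase, was at 12.28 against 6.76 and 3.40, or 40.2-fold above. Gsta3, a glutathione transferase, was at 7.65 against 4.85 and 3.01, and its other probe at the level gave a mean difference of 0.50. Of 20 retinoid genes and aldehyde dehydrogenases 4 were higher. Stra6, the receptor that takes up retinol, was at 7.74 against 3.14 and 3.16, at least 2.87-fold higher. Crabp1, which binds retinoic acid in the cytosol, was the member lower, at 3.35 against 6.95 and 7.27.

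Among Wnt pathway genes 8 of 32 were higher (25.0%, against 4.34% of all genes) and 1 lower (3.1%, against 2.41%), with a median of 0.09. Of the ligands, Wnt2 was at 7.57 against 4.97 and 5.37 and Wnt4 at 6.96 against 4.91 and 2.18. The ligands Wnt5a and Wnt10b lay below both MSC arrays without reaching the limit. Fzd2, a receptor, was at 9.39 against 8.12 and 7.66. Axin2, a feedback inhibitor and standard target of the pathway, was at 8.28 against 4.03 and 0, at least 4.09-fold higher. Lgr5, the R-spondin receptor and stem cell marker, was at 7.29 against 5.34 and 4.28. Nkd2 and Notum, both feedback inhibitors, reached 6.41 and 6.13 on the osteocyte array and were under 5 on the MSC arrays. Sfrp4, a secreted Wnt antagonist, was lower, at 3.27 against 9.81 and 5.83, with a wide gap between the MSC arrays. Porcn, which acylates Wnt proteins for secretion and stood outside the list, was at 11.08 against 8.35 and 7.21.

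In the IGF axis the genes higher were binding proteins and Stc2. Of 15 genes of the IGF axis 4 were higher (26.7%, against 4.34% of all genes) and 0 lower. The medians were 0.52 and 1.15 against MSC_d0 and MSC_p4. Igfbp5, the binding protein most abundant in bone, was at 9.28 against 3.44 and 1.995, at least 7.99-fold higher, and its 3 probes at the level gave mean differences between 4.79 and 4.89. Igfbp3, the main carrier in serum, was at 8.95 against 4.59 and 3.65, at least 6.37-fold higher. Igfbp4 was bright throughout, at 13.18 against 11.57 and 10.85, and Stc2, an inhibitor of the protease that cleaves it, was at 9.83 against 6.60 and 5.60.

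Of 37 TGF-beta and BMP pathway genes 7 were higher (18.9%, against 4.34% of all genes) and 2 lower (5.4%, against 2.41%). Bmp4, a ligand of bone induction, was at 11.42 against 9.32 and 8.22, 4.22-fold above the nearer array. Of the secreted antagonists Fst (follistatin) was at 8.34 against 4.58 and 5.82 and Chrd (chordin) at 8.53 against 6.96 and 4.96, both higher. Grem1, Nog and Fstl3 were not past the limit against both arrays, and the follistatin-like gene Fstl1 was lower, at 11.11 against 12.32 and 12.12. Ltbp4, which stores latent TGF-beta in the matrix, was at 8.53 against 5.31 and 5.66, at least 4.81-fold higher. Id4, a target of BMP signals, was at 8.46 against 5.13 and 3.82. Tgfbi, a matrix protein named for its induction by TGF-beta, was the gene farthest below the MSC arrays, at 1.08 against 9.32 and 11.29. It was at least 8.21-fold lower than on the nearer array, and its 2 probes at the level gave mean differences of -6.15 and -3.76. Fgfr2, a receptor of bone growth, was at 9.73 against 5.90 and 5.53, at least 10.8-fold higher, and Fgf7, a ligand of its epithelial form, was lower, at 11.17 against 13.02 and 12.39.

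Most matrix genes were under the limit, as were 8456 of all 9069 genes compared. Beside 4.34% of all genes higher and 2.41% lower, the collagen list had 6.25% and 6.25%. The proteoglycan, elastic and matricellular list had 7.69% and 12.8%, and the metalloproteinase list 25.0% and 0%. Of 32 genes of fibrillar collagen and its assembly 2 were higher and 2 lower, 16 lay below both MSC arrays and 3 above both by any size, and the median was -0.39. Of 39 proteoglycan, elastic and matricellular genes 3 were higher and 5 lower, with 14 above both arrays and 16 below both. Sdc3, a syndecan of precartilage and bone, was at 4.31 against 9.12 and 10.12, at least 7.16-fold lower. Tnc (tenascin C) was at 4.81 against 7.76 and 8.96, at least 2.92-fold lower. Cemip, which degrades hyaluronan, was at 5.79 against 9.44 and 8.91, at least 6.20-fold lower. Col2a1, the collagen of cartilage, was at 2.69 against 7.38 and 9.08, at least 2.28-fold lower. Dcn (decorin) was at 11.71 against 10.68 and 4.37, just past the limit against MSC_d0 and far from MSC_p4. Of 24 metalloproteinases and inhibitors 6 were higher and 0 lower, among them Mmp3 (stromelysin), at 7.73 against 4.74 and 4.68, and the inhibitor Timp3, at 13.47 against 11.65 and 11.09.

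Of 18 contractile genes compared, 4 were lower (22.2%, against 2.41% of all genes), 0 higher and 14 neither. By any size 10 lay below both MSC arrays and 2 above both, with medians of -0.39 and -0.70 against MSC_d0 and MSC_p4. Acta2 (smooth muscle actin) was at 12.20 against 14.62 and 14.48, 4.84-fold below the nearer array, and its 4 probes at the level gave mean differences from -3.46 to -2.35. Actg2 was at 4.29 against 7.08 and 7.43, Tagln at 3.996 against 6.33 and 6.48, and Tpm2 at 9.88 against 11.40 and 12.27. The 20 genes farthest below the MSC arrays also held genes of other functions. Selp (P-selectin) was at 5.34 against 9.42 and 10.90, at least 8.78-fold lower. Aoc3, an amine oxidase of the cell surface, was at 4.48 against 10.62 and 8.53, at least 4.83-fold lower. Esm1, a secreted proteoglycan of endothelium, was at 7.71 against 10.52 and 10.75. Piezo2, a mechanically gated channel, was at 0 against 6.25 and 5.82. The MSC arrays lay close to each other at Acta2, Actg2, Tagln and Esm1 and both above the osteocyte array.

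**Figure D4:**
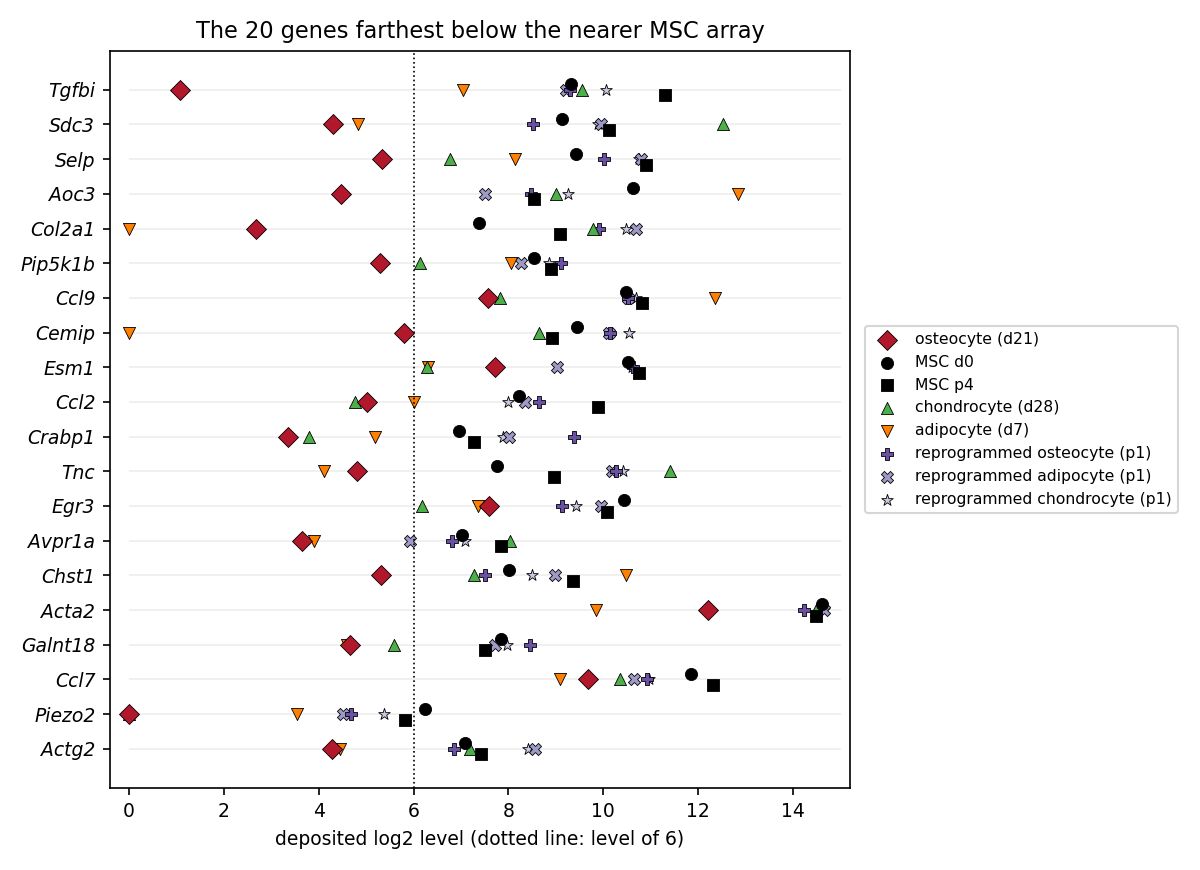
Deposited log2 levels on all 8 arrays of the 20 genes farthest below the nearer MSC array, with symbols as in the plot of genes higher. The red diamonds lie left of both black symbols for every gene. The chondrocyte array is far to the right of them at Sdc3 (12.52) and Tnc (11.40), and the adipocyte array at Aoc3 (12.83) and Ccl9 (12.36).

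Cell cycle genes were the list with the largest share lower, 19 of 39 (48.7%, against 2.41% of all genes) and 0 higher. Their median difference was -0.92 against MSC_d0 and -2.71 against MSC_p4, and the list stood 1.63 higher on MSC_p4 than on MSC_d0, a gap between the MSC arrays whose part in the result was not tested. Of the 39 members 35 lay below both MSC arrays and 0 above both. Pclaf, a PCNA-binding protein of replication, was at 6.47 against 8.72 and 10.68, 4.19-fold below the nearer array. Birc5 (survivin) was at 7.68 against 9.35 and 10.93, and its 3 probes at the level gave mean differences between -2.52 and -2.12. Kif11, a spindle motor, was at 4.52 against 6.87 and 8.78, at least 1.66-fold lower. Ccne1 (cyclin E1) was at 2.78 against 5.67 and 6.89. Top2a was at 7.20 against 8.68 and 10.35. Cdk1 and Pcna were below both arrays without reaching the limit, at 9.71 against 10.42 and 11.65 and at 9.11 against 9.55 and 10.54.

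Of 17 CDK inhibitors, D cyclins and p53 targets 4 were higher (23.5%, against 4.34% of all genes), 0 lower and 15 above both MSC arrays. Cdkn2b (p15), which blocks CDK4 and CDK6, was at 12.17 against 11.08 and 10.10. The sestrin Sesn1 was at 11.89 against 10.12 and 8.75, Trp53inp1 at 11.58 against 10.15 and 8.43, and cyclin D3 (Ccnd3) at 11.73 against 10.60 and 10.70, and the last of these lost its place when arrays were centred on their medians. Cdkn1a (p21) was at 12.09 against 11.54 and 11.23, a difference of 0.56 from the nearer array. The E2F motifs TTTCCCGC and TTTGGCGC, searched on both strands, were found in the windows of 12 of 162 genes lower (7.41%), 4 of 303 genes higher (1.32%) and 3.36% of genes compared. Among the genes lower that hold one are Pclaf, Mcm5, Cdt1, Gins3 and Kif18a, and none of these matches is shown to be bound. Of the other motifs, the NF-Y box CCAAT was at 43.6% of genes higher, 49.4% of genes lower and 43.7% of genes compared. The AP-1 site TGANTCA was at 7.26%, 5.56% and 6.29% of these. The TEAD site GGAATG was at 17.2% (52 of 303), 13% (21 of 162) and 14.4%.

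Among chemokines and cytokines 3 CC chemokines were lower. Ccl2 was at 5.02 against 8.22 and 9.89, at least 3.94-fold lower. Ccl7 was at 9.68 against 11.86 and 12.31, and Ccl9 at 7.56 against 10.47 and 10.81, or 6.98-fold below the nearer array. These were the 3 members lower (12.5%) among 24 chemokines, cytokines and NF-kB targets, and 2 were higher (8.33%). Among all genes 2.41% were lower and 4.34% higher. Ccl8, another CC chemokine of the list, was above both MSC arrays, at 5.54 against 3.99 and 2.90, with all 3 values under 6. Nfkbia, the inhibitor of NF-kB, was at 10.40 against 8.39 and 8.25, and Birc3, an NF-kB target that inhibits apoptosis, at 8.03 against 5.77 and 5.22. Of 22 immediate early genes 5 were higher (22.7%) and 1 lower (4.5%). Fos was at 11.94 against 10.28 and 9.25, and Egr3, the member lower, at 7.60 against 10.44 and 10.09.

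Interferon response genes differed more between the MSC arrays than the osteocyte array did from either, with a median of -2.65 for MSC_p4 minus MSC_d0. Of 30 compared, 0 were higher and 0 lower against both, with a median of -0.80 against MSC_d0 and 1.86 against MSC_p4. Among all genes 4.34% were higher and 2.41% lower, and a call requires a gene to lie beyond both MSC arrays, however far apart these are. Ifit3, an antiviral gene, was at 11.89 on the osteocyte array, 13.89 on MSC_d0 and 8.37 on MSC_p4. The placental list of Prl2c genes had the opposite order, with a median of 1.80 against MSC_d0 and -1.37 against MSC_p4 over 8 genes. Of these, 1 (Sprr1a, 12.5%) was lower against both and 0 were higher.

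Genes of general metabolism were mostly under the limit, as were 8456 of all 9069 genes compared. Among all genes 4.34% were higher and 2.41% lower. Of 38 respiratory chain genes, 30 genes of ER folding, 24 ribosomal proteins and 10 Hox genes, 0 reached the limit in either direction against both MSC arrays, with medians of -0.15, -0.18, -0.03 and 0.22. Of 28 glycolysis and hypoxia genes 1 was higher (3.57%) and 2 lower (7.14%), among them Vegfa, the endothelial growth factor, at 10.20 against 11.57 and 11.66. Of 23 adipocyte genes 1 was higher (4.35%, against 4.34% of all genes), the lipase Pnpla2 at 9.75 against 8.14 and 8.62, and 1 was lower, Angptl4. The fat cell markers Plin1, Fabp4 and Cidec were under 6 on all 3 arrays. Adipoq was at 8.07 against 5.89 and 7.47, above both MSC arrays without reaching the limit. Pparg, at 9.97 against 10.33 and 11.05, and Cebpa, at 5.945 against 5.965 and 6.002, were below both without reaching it. Of 26 genes of lipoprotein and cholesterol handling 4 were higher (15.4%) and 1 lower (3.85%). By any size 9 lay above both MSC arrays and 12 below both. The lipoprotein receptor Vldlr was at 10.71 against 6.97 and 5.21, or 11.98-fold above the nearer array, and Sqle, an enzyme of sterol synthesis, was lower, at 9.70 against 10.80 and 11.52. Apoe was at 6.22 against 3.75 and 3.74, at least 1.13-fold higher. Of 15 MSC surface and stromal genes 0 were higher and 0 lower. Pdgfra, a receptor of stromal progenitors, was at 12.73 against 12.58 on MSC_d0 and 10.21 on MSC_p4, and Vcam1 at 10.45 against 10.65 and 9.85. The MSC markers Nt5e, at 5.26 against 5.37 and 8.24, and Eng, at 4.41 against 5.38 and 5.57, were below both. Neither reached the limit, and Thy1 was under 6 on all 8 arrays.

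**Figure D5:**
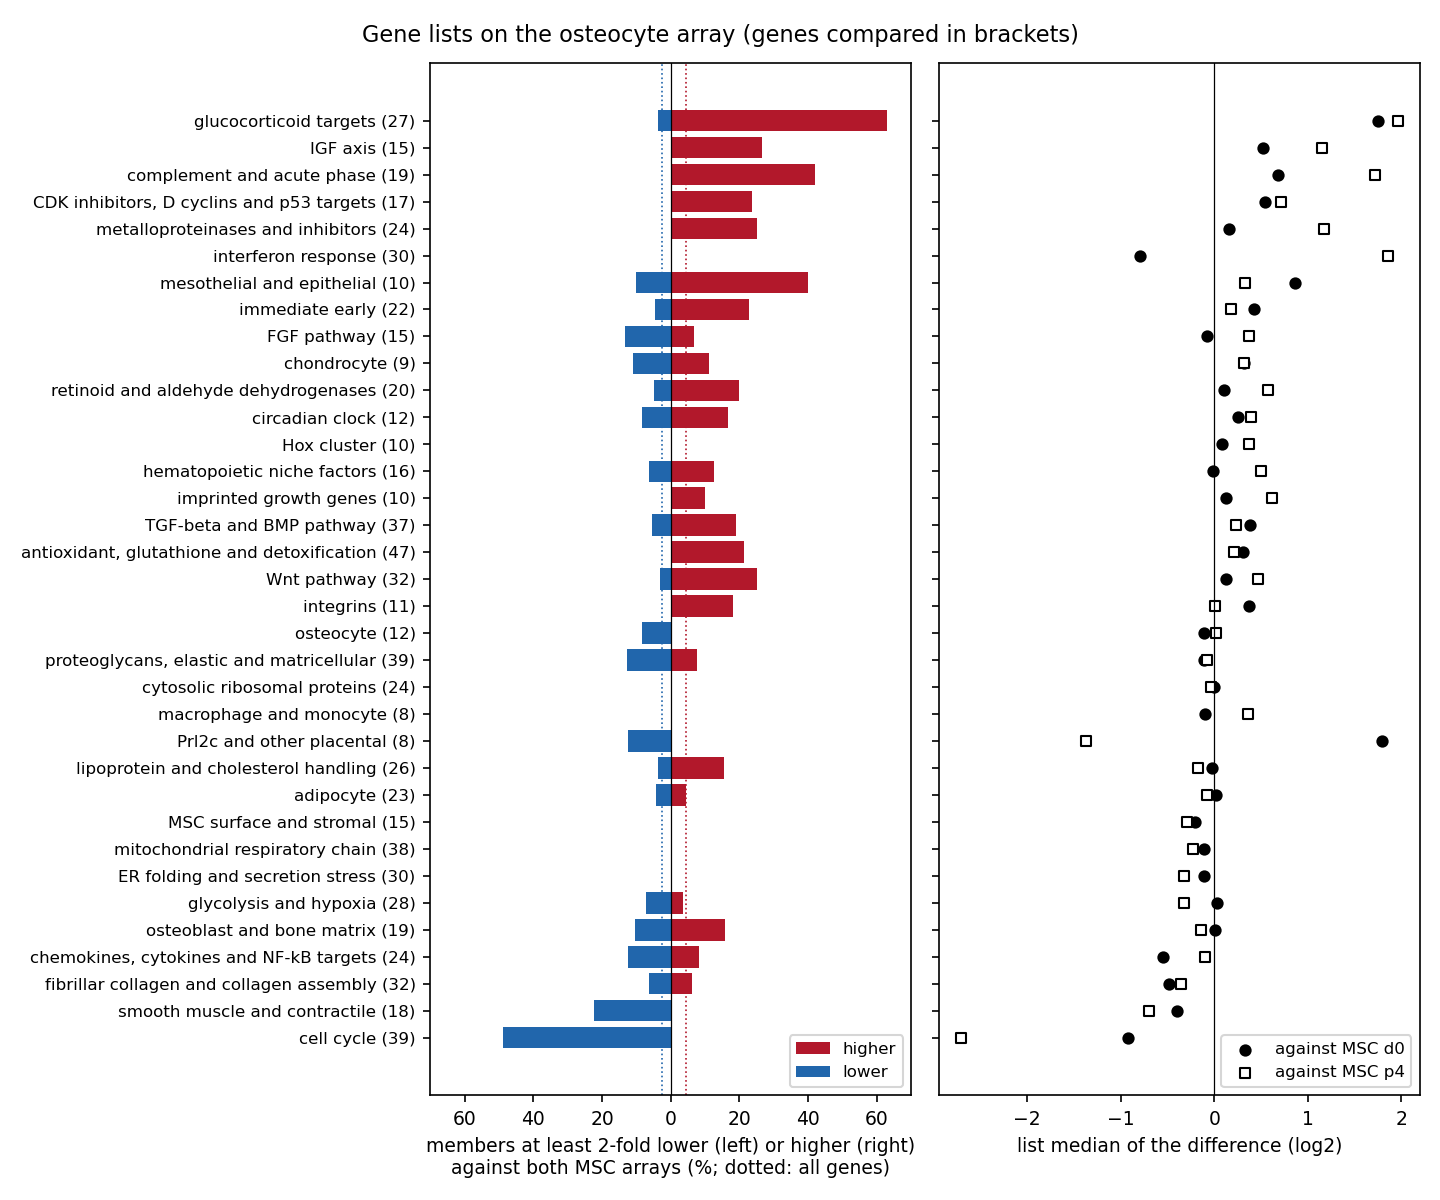
Gene lists with at least 8 genes compared. Left, the percent of members at least 2-fold higher (red) or lower (blue) against both MSC arrays, with dotted lines at the 4.34% and 2.41% of all genes; right, the list median of the difference from MSC_d0 (filled circles) and MSC_p4 (open squares) in log2. Glucocorticoid targets lead at the top with both medians above 1.7, cell cycle genes lie at the bottom, and the circle and square lie on opposite sides of 0 for interferon response genes.

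Smaller lists had a few members past the limit, beside 4.34% of all genes higher and 2.41% lower. Of 16 hematopoietic niche factors 2 were higher (12.5%) and 1 lower (6.25%). Jag1, a Notch ligand, was at 9.53 against 6.70 and 5.40, or 6.33-fold above the nearer array, and Il7, the lymphoid growth factor, was the member lower, at 6.05 against 8.53 and 7.66. Of 12 circadian genes 2 were higher (Per1 and Per2, 16.7%) and 1 lower (Nr1d2, 8.33%). Of 11 integrin genes 2 were higher (18.2%). Itgbl1, a secreted protein with integrin-like repeats, was at 10.37 against 4.88 and 3.40, at least 16.7-fold higher, though its 2 probes at the level gave mean differences of 1.25 and 5.27. Itgb7 was at 6.39 against 3.87 and 4.64. Of 9 chondrocyte genes 1 was higher, Matn4 (matrilin 4) at 6.71 against 4.54 and 4.22, and 1, Col2a1, was lower.

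The levels on the other arrays were set beside these, without a test, since all comparisons would share the MSC arrays. Both sets of genes were chosen by the distance of the osteocyte array from both MSC arrays. That choice by itself favours extreme levels on the osteocyte array and levels nearer the MSC arrays elsewhere. Over the 394 genes higher the median level was 9.25 on the osteocyte array, 8.31 on the chondrocyte array, 6.996 on the adipocyte array and 6.43 on the reprogrammed osteocyte array, against 6.76 on MSC_d0 and 5.97 on MSC_p4. The osteocyte array was above all 7 others at 278 of the 394 genes and below all 7 at 92 of the 219. Over the 219 genes lower the median level was 6.23 on the osteocyte array, 6.05 on the adipocyte array, 7.24 on the chondrocyte array and 8.17 on the reprogrammed osteocyte array, against 7.94 and 8.80 on the MSC arrays. The reprogrammed osteocyte array lay closer to the MSC mean than to the osteocyte array at 374 of the 394 genes higher and at 207 of the 219 genes lower. The choice of genes favours such counts, and a return to an MSC state was not tested. Serpina3n, for example, was at 2.88 on the reprogrammed osteocyte array, Cldn11 at 2.06, Msln at 3.11 and Tgfbi at 9.31.

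Where a gene had several probes at the level they mostly pointed the same way. Of 143 genes higher with several such probes, 88 had each of them past the limit and 5 had a probe of the opposite sign. Of 75 genes lower, 30 had each of them past the limit and 2 had a probe of the opposite sign. With the median over probes 9 of 105 named genes past the limit no longer reached it (Angptl4, Bglap, Ccnd3, Col5a2, Col8a2, Dcn, Nr1d2, Nr1h3 and Per2). With values under 6 raised to 6 on every array, a setting chosen after seeing the data, 18 no longer did, among them Bglap, Cdh1, Serping1, Apoe, Wnt4 and Matn4 among the genes higher and Actg2, Tagln, Crabp1, Piezo2, Phex, Kif11 and Ccne1 among the genes lower. With an offset of 64 in place of 16, 19 no longer did, among them Pdk1, Ch25h, Timp4, Etv1, Serping1, Apoe, Cdh1, Tagln and Phex.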

How the data were processed

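Log2 values of 45281 probes on 8 Illumina arrays were used as the authors deposited them. Per the labels, RNA was isolated by a Qiagen RNeasy kit, and an Ambion MessageAmp kit made the biotinylated cRNA. The authors' software, background correction and normalization: not given in the sources used here. Another table holds 16 value columns from before normalization, which could be matched to no sample by name and were left out.

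Groups were taken from the cell type labels. The platform annotation gave gene symbols (34885 probes with 1 symbol, 18 with several, 10378 with none), updated for 34807 probes through the RefSeq gene table of GRCm38.p6. The probe of highest mean after log2(2^x + 16) stood for a gene, and genes needed a level of 6 on 1 or more of the 8 arrays. A gene was called higher or lower at a log2 difference of at least 1 in the same direction from both MSC arrays, with the brighter side at 6 or more. A gene under 6 on the dimmer side has only a bound, in which the dimmer side counts as no less than 6.32 (a level of 6 with the offset added). The osteocyte label has 1 array, so calls rest on size, and a test that borrows the spread of the MSC arrays (limma) was run as an alternative only. The number of arrays limits the precision. Lists were described by counts and medians beside those of all genes.

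The comparison, its members and the 38 gene lists were chosen with earlier results of these data known. Named genes are, per direction, the 20 with the largest difference from the nearer MSC array, up to 4 members of each list by the same measure, and fixed cell type markers. Any other gene named was chosen after its values were seen.

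Start site windows and their sequences are those of RefSeq on GRCm38.p6. Motifs were searched on both strands, and a gene counts once however many windows it has. Python 3.11.15 with pandas 2.3.3 and numpy 2.4.6 was used, with limma 3.58.1 in R 4.3.3. The counting was tested on simulated data with little noise and changes planted in bright genes only. That checks the counting alone and cannot speak to dim genes or to the gap between the MSC arrays. Alternatives changed the level, the offset, the probe, the scaling, the size and the MSC arrays used.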

Additional observations from a re-analysis of the deposited data

Results flagged for a closer look

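At 14 of the 105 named genes past the limit, the osteocyte array and another differentiated array were each at least 2-fold from both MSC arrays, in opposite directions. The share over all genes was not counted, and many of the named genes were chosen for the size of their difference. Smaller differences of opposite sign are not counted. Each label has 1 array, so that no difference was tested and all share the MSC arrays. With the adipocyte array this held for 8 genes, given here by their log2 differences from the MSC mean. The adipose and vascular amine oxidase Aoc3 stood at -4.35 on the osteocyte array and 3.22 on the adipocyte array. The lipoprotein lipase inhibitor Angptl4 stood at -1.66 and 2.60. The chemokine Ccl9 stood at -2.97 and 1.71, and the sulfotransferase Chst1 at -2.95 and 1.74. Bmp4 went the other way, at 2.61 and -2.33. So did the metalloproteinase inhibitor Timp3, at 2.09 and -4.81, the prolyl hydroxylase P4ha2, at 1.21 and -1.53, and cyclin D3 (Ccnd3), at 1.07 and -1.05.

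With the chondrocyte array it held for 6 genes. The syndecan Sdc3 stood at -4.49 on the osteocyte array and 2.87 on the chondrocyte array, and tenascin C (Tnc) at -2.97 and 2.97. The collagen chains Col1a2 and Col5a2 stood at -1.42 and 1.31 and at -1.36 and 1.28. The immediate early gene Fos stood at 2.15 on the osteocyte array and -2.23 on the chondrocyte array, and the phosphatase Dusp1 at 1.28 and -1.12.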

How the results depend on the processing

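Of 26 counts of genes higher or lower under other settings, 17 stayed within 1.5 times the reported 394 and 219. Without one MSC array the genes higher ranged from 488 to 1070 and the genes lower from 385 to 896, the larger values against MSC_p4 alone. At a log2 difference of 1.5 there were 226 higher and 58 lower. An offset of 64 left 101 lower and 301 higher. Raising values under 6 to 6, a setting chosen after seeing the data, left 143 lower and 324 higher, and by construction shrinks differences of dim genes. Limma over 8 arrays with 7 cell types takes its spread from the MSC arrays alone (1 residual degree of freedom). It assumes that the lone osteocyte array varies as they do, and after adjustment over all genes it called no gene in either direction. Its unadjusted p-values are not used here. Levels of 5 and 7 gave 437 and 335 higher, and centring arrays on their medians gave 370 higher and 251 lower. Of the values of named genes 290 moved and 1060 stayed, and of list medians 82 moved and 335 stayed. Of the named genes past the limit 0 changed sign under these settings. With the same probe, a change of level or offset, raising to 6 or leaving out 1 MSC array cannot reverse a call. That part of the result was fixed in advance. The medians of 10 of 38 lists changed sign with both MSC arrays kept, and none of these had a reported median beyond 0.56 in size. No paired analysis was possible because the replicate numbers of the labels pair no samples and the osteocyte label has 1 array. For dim genes the fold is only a bound, and with 1 osteocyte array the spread of that label is unknown.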

Other observations

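Some gene families had members well above both MSC arrays. They overlap the lists in part (Wnt2, Wnt4 and Mertk were counted there), and they were chosen after their values had been seen, so the counts describe these arrays only. Over all genes compared 4.34% were higher and 2.41% lower. The axon guidance ligands Slit2 and Slit3 were at 10.19 and 10.10 on the osteocyte array, at 6.28 and 6.04 on MSC_d0 and at 4.23 and 4.57 on MSC_p4, while their receptor Robo1 was at 8.65 against 8.59 and 7.85. Of 5 class 3 semaphorins compared 3 were higher, among them Sema3a, which guides nerves in bone, at 9.33 against 8.06 and 7.53. Sema3c was below both without reaching the limit, at 6.81 against 7.90 and 8.30. Of 7 Wnt ligands 5 were higher, with Wnt10a at 8.16 against 3.08 and 3.11 and Wnt7b at 7.18 against 4.03 and 1.47. Wnt5a, at 9.20 against 10.11 and 9.41, and Wnt10b, at 6.18 against 8.17 and 7.15, were below both without reaching the limit. Gas6 was at 13.94 against 9.88 and 8.85, and its receptor Mertk at 9.62 against 5.82 and 4.89, while the related receptor Axl was at 12.54 against 12.16 and 12.003. Of 4 genes of the Ugt1a cluster, which glucuronidate small molecules and share exons, 3 were higher, Ugt1a10 the brightest at 11.96 against 10.19 and 8.89.

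The histone cluster genes, most of which are transcribed with DNA replication, were mixed. Of 41 compared 10 were higher and 2 lower, beside 4.34% and 2.41% of all genes, with a median of -0.40 from the MSC mean. H2bc4 was at 11.82 against 9.78 and 9.37, and the linker histone H1f2 at 12.22 against 10.52 and 10.41. H3c7 and H2ac22 were lower, at 3.14 against 6.02 and 8.35 and at 9.64 against 10.68 and 12.36. Histone paralogs are near-identical and their probes can share signal. Among the transcription factors Klf5 was at 10.81 against 7.29 and 7.03, Gli2 at 7.92 against 4.45 and 3.99, Hif3a at 8.43 against 2.70 and 3.76, and Tead4 at 7.55 against 4.10 and 4.62. The lymphatic growth factor Vegfd was at 13.36 against 10.82 and 10.07, and the hyaluronan receptor Lyve1 at 7.35 against 3.57 and 0. The salivary and pancreatic amylases Amy1 and Amy2a5, whose copies can share signal, were at 7.12 and 10.49 on the osteocyte array, with Amy2a5 at 6.47 on MSC_d0 and 3.75 on MSC_p4. Scara5, a ferritin receptor, was at 12.95 against 10.66 on MSC_d0 and 3.83 on MSC_p4.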
